A study of Mus musculus with 9 samples.

Results

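Sebaceous wax and lipid genes were described in the epidermis of newborn Alox12b knockout and wildtype mice. The list named 9 genes, Far1, Far2, Awat1, Awat2, Elovl3, Scd1, Scd3, Dgat2 and Mc5r, and its members were all array probe sets annotated with 1 of these genes alone. The annotation gave 15 such probe sets, which covered 7 genes out of 18193 genes measured. Far1 had 5 probe sets, Far2, Scd1, Scd3 and Dgat2 had 2 each, and Elovl3 and Mc5r had 1 each. Awat1 and Awat2 had 0 probe sets under this annotation and were not analysed here. The genes were chosen by their known roles and from earlier results of the same arrays, among them the difference of Far2 between the genotypes. The knockout and wildtype values below are therefore a description, and the limma calls beside them are no independent evidence.

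The series compared 4 arrays labelled Alox12b-KO with 5 arrays labelled wildtype. Alox12b encodes 12R-lipoxygenase, which oxidises linoleate esterified in epidermal ceramides, and its loss leaves newborn mice with a leaking skin barrier. All pups came from crosses of heterozygous parents and were killed right after birth, and the wildtype samples are labelled strain 129S6. Each sample was trunk epidermis peeled from the dermis after brief heating, so it held the whole epidermal sheet with whatever glands, follicles and deeper tissue came along. The sources used here do not give the extent of the deletion or the strain of the knockout pups. Alox12b itself read 10.84 to 11.60 on knockout arrays and 10.56 to 11.32 on wildtype arrays, so its probe set does not tell the genotypes apart and, with the deleted part unknown, checks no label.

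Sebaceous glands grow from the upper hair follicle, and their cells fill with lipid and burst to release sebum. Rodent sebum is rich in wax esters, which join a fatty alcohol to a fatty acid. The fatty acyl-CoA reductases Far1 and Far2 make the alcohol, and the wax synthases Awat1 and Awat2 join it to an acyl group. Elovl3 lengthens saturated and monounsaturated acyl chains, and Scd1 and Scd3 place a double bond in them. Dgat2 forms triglyceride, and Mc5r is the melanocortin receptor known for its part in sebum secretion in mice. Far1 also serves ether lipid synthesis in most cells, Scd1 and Dgat2 are also strong in adipocytes, and Dgat2 is also present in other epithelial cells.

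The promoters of the 2 reductase genes are shown because Far2 was the member whose groups separated and Far1 is its paralog. Both are RefSeq windows of build GRCm38.p6 with 250 bases before and 50 bases after the start, on the plus strand, at chr6:148047166-148047465 for Far2 and chr7:113513584-113513883 for Far1. Capitals mark the CCAAT box, the GC box GGGCGG and the TATA variant TATATA on either strand.

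Far2: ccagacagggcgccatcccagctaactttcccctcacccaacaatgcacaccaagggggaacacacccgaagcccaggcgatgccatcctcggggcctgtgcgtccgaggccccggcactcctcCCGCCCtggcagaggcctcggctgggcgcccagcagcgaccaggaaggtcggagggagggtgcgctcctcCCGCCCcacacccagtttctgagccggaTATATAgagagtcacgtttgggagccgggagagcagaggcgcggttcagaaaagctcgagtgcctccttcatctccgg

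Far1: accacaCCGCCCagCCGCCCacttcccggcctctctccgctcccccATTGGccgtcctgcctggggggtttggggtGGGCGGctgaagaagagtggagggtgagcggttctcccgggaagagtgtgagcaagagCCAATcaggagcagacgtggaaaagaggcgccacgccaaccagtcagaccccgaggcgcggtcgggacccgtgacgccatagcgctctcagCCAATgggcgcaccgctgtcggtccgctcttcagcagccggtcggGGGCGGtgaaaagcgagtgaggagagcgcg

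The Far2 window held 2 matches to GGGCGG, the letters of a GC box, and 1 to TATATA, which began 28 bases before the start. It held 0 matches to CCAAT. The Far1 window held 4 matches to GGGCGG, 3 to CCAAT and 0 to TATATA. Over 32851 mouse promoter windows of this length, 35.7% held GGGCGG, 37.4% held CCAAT and 5.67% held TATATA. Neither window held the E-box CACGTG, which 7.15% of windows held, the sterol response letters TCACNCCAC, which 1.24% held, or TATAAA, which 13.6% held. The direct repeat bound by PPAR factors was also searched for, had 0 matches in both, and was held by 0.0396% of windows. None of the marked matches overlapped another. Far2 was 66.0% and Far1 67.7% G or C, where the median window was 52.7%. A match describes these letters only.

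Values were log2 expression on Affymetrix Mouse Genome U430 2.0 arrays, and the median of an array lay between 3.14 and 3.31. Precision is limited by the number of arrays. A level of absent RNA was read from the Y-linked genes Eif2s3y, Kdm5d and Uty on the 5 arrays with high Xist, where they lay between 1.72 and 3.28. Background differs between probe sets, so 3.28 is a guide and not a detection limit. Sex moved with genotype. Xist, expressed from the inactive X of females, read 9.99 to 10.20 on all knockout arrays, 10.95 on wildtype array 4 and 3.23 to 4.32 on the other wildtype arrays. Each member was therefore also fitted with the Xist level as a covariate, where 0 members passed, as did only 9 of all 18193 genes. Since that fit called so few genes, the 0 says little about the members. A further fit used the arrays with high Xist alone, among which wildtype array 4 was the only wildtype array. Of the 15 member probe sets, 5 read above 3.28 on every array, 5 read below it on every array and the other 5 crossed it. Those always above it belonged to Far2, Scd1 and Dgat2. Both probe sets of Scd3 and the only one of Mc5r were always below it, so these arrays gave no clear level for 2 genes that are largely confined to sebaceous glands in skin. The name sebaceous thus refers to the known roles of the genes, and no sebaceous cell population was identified in these samples.

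Far2 was the only member called. In limma over all genes 1 of 7 members passed an adjusted p of 0.05, where 1.24% of all genes did, and 1 of 7 had groups that did not overlap, where 8.28% of all genes did. In limma over all probe sets 1 of 15 passed, where 1.11% of all did, and 1 of 15 did not overlap, where 7.18% did. At an unadjusted p of 0.05 the numbers were 3 of 7 genes, where 17.8% of all genes passed, and 6 of 15 probe sets, where 16.3% of all did. For the gene lists below, 7.08% of all genes were higher and 10.7% lower at that threshold. Of the 15 differences 11 were negative and 4 positive. The median difference of the 7 genes was -0.03, against 0.02 for all genes. Since the genotype contrast was in view when the genes were chosen, nothing is read from these counts.

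**Figure D1:**
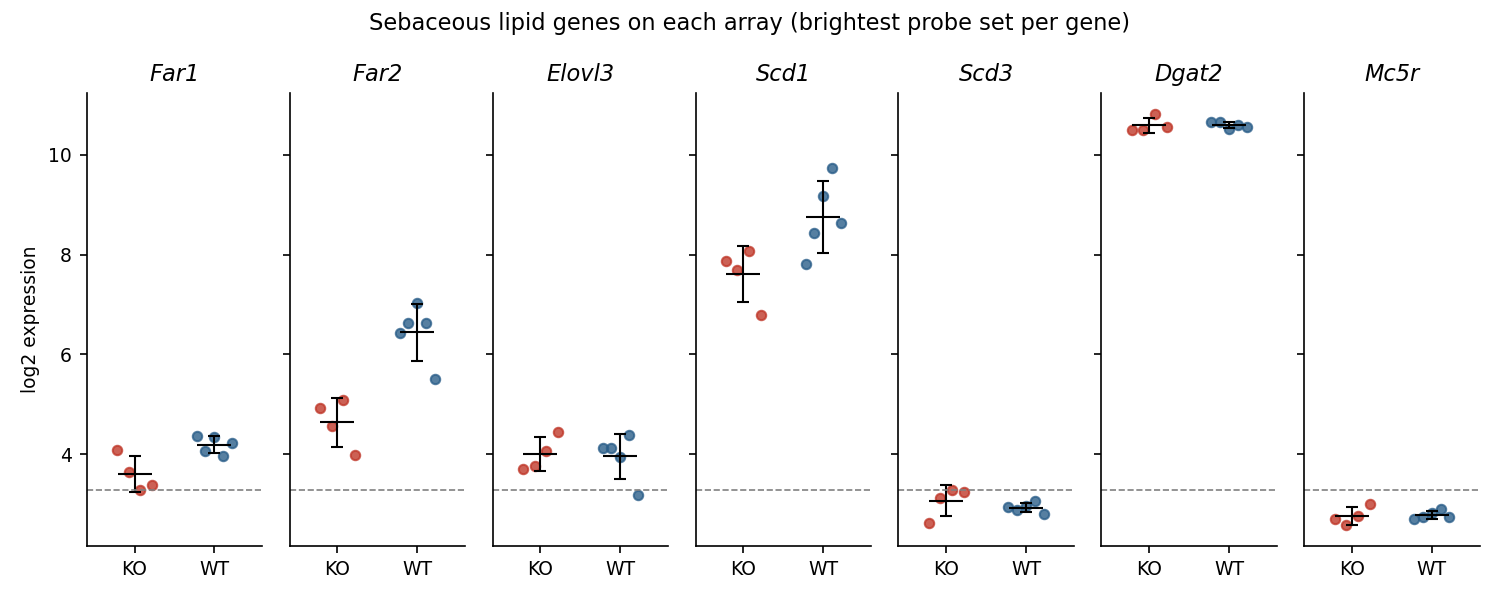
Log2 expression of the brightest probe set of each of the 7 measured genes, with the 4 knockout (KO) arrays left of the 5 wildtype (WT) arrays. Points are arrays, horizontal bars are means with SD, and the dashed line marks 3.28, the highest Y-linked value on arrays with high Xist. Far2 is the gene whose groups do not overlap, Scd1 is lower on average in KO with overlapping groups, and Scd3 and Mc5r lie below the line.

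Far2 makes long-chain fatty alcohols. Its brighter probe set 1455889_at read 4.92, 4.57, 5.08 and 3.98 on knockout arrays 1 to 4, and 6.43, 6.64, 7.03, 6.63 and 5.50 on wildtype arrays 1 to 5. All knockout values lay below all wildtype values. The nearest were knockout array 3 at 5.08 and wildtype array 5 at 5.50. The means were 4.64 ± 0.49 (SD, n = 4) in knockout and 6.45 ± 0.57 (SD, n = 5) in wildtype. Far2 fell by 1.81 on the log2 scale (SE 0.30), or 3.51-fold, with a 95% interval of the difference from -2.47 to -1.15. Among 18193 genes this was the 15th most negative difference, and the limma adjusted p was 0.0200. In a bulk sample fewer cells that express a gene and less RNA per cell cannot be told apart.

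The call depended on single arrays. Without knockout array 2 or 4, or without wildtype array 1, 2 or 4, the limma adjusted p of Far2 lay between 0.0580 and 0.0707 and missed the threshold. Its difference then lay between -1.59 and -1.81. It passed without knockout array 1 or 3 and without wildtype array 3 or 5, and over all 9 omissions the difference ran from -2.05 to -1.59. Wildtype array 4, the one wildtype array with high Xist, read 6.63, above every knockout array. Set against that array alone, the knockout arrays were lower by 1.99 (difference -1.99, SE 0.42), with a limma adjusted p of 0.428. That fit assumes that the lone wildtype array varies as the knockout arrays do. With the Xist level as a covariate the difference was -2.08 and the limma adjusted p 0.326.

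**Figure D2:**
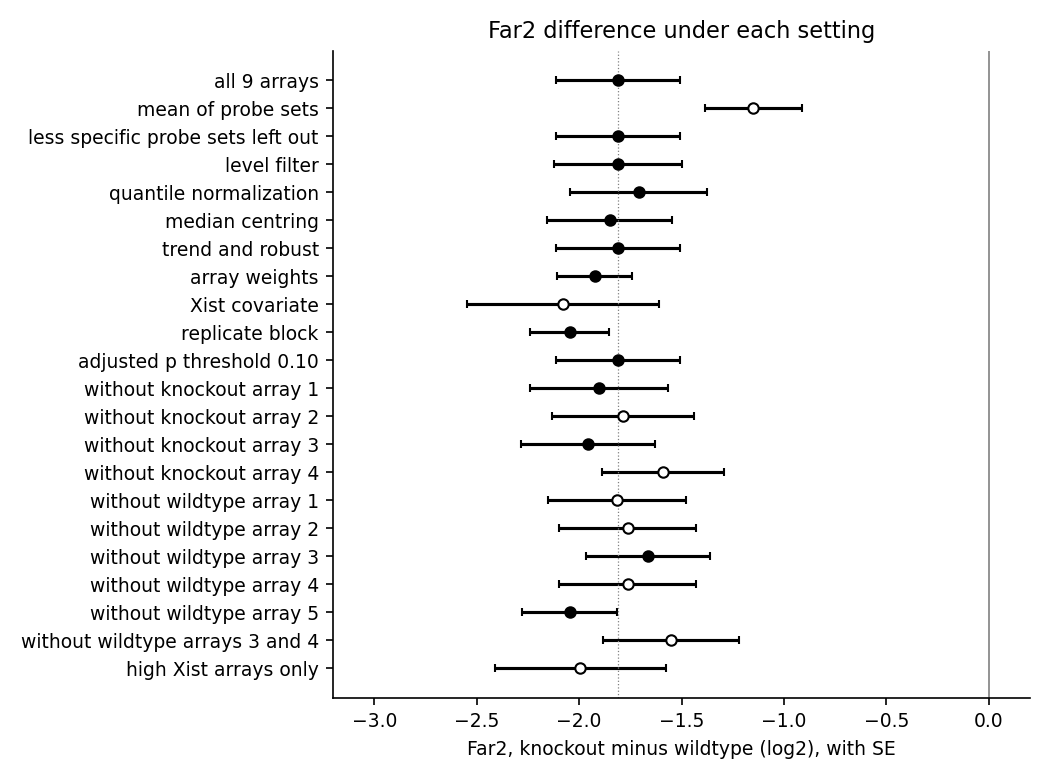
Difference of Far2 (knockout minus wildtype, log2 scale) under each setting, with all 9 arrays at the top. Bars are SE, filled points passed the limma threshold and open points did not. The difference lies between -2.08 and -1.15 under every setting shown, and omission of 5 of the 9 single arrays ends the call.

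The second Far2 probe set was dim. Probe set 1435621_at read 2.75, 2.49, 2.79 and 2.20 on knockout arrays 1 to 4, and 3.19, 3.24, 3.05, 3.29 and 2.46 on wildtype arrays 1 to 5. Wildtype array 5 fell inside the knockout range and the other wildtype arrays lay above it. The difference was -0.49 (SE 0.19) with a limma adjusted p of 0.242, and 8 of the 9 values lay under 3.28. After removal of group means the probe sets of Far2 followed each other over the 9 arrays with Pearson r = 0.88, so array 5 among wildtype and array 4 among knockout were lowest on both. With the mean of both probe sets as the gene value, the difference was -1.15 and the limma adjusted p 0.0506.

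Far1, the reductase paralog that also feeds ether lipid synthesis in peroxisomes, was dimmer. Probe set 1426369_at read 4.08, 3.65, 3.28 and 3.38 on knockout arrays 1 to 4, and 4.37, 4.06, 4.35, 3.97 and 4.22 on wildtype arrays 1 to 5. Knockout array 1 overlapped the wildtype range, and the other knockout arrays lay below it. The means were 3.60 ± 0.36 (SD, n = 4) in knockout and 4.19 ± 0.18 (SD, n = 5) in wildtype, a difference of -0.60 (SE 0.17) that did not pass, with a limma adjusted p of 0.124. Without knockout array 1 the difference was -0.76 and passed, with a limma adjusted p of 0.0428. The other 4 probe sets of Far1 differed by -0.43, -0.27, -0.23 and 0.01, none past the threshold. Of these, 1435315_s_at and 1453550_a_at are of kinds that can match several transcripts. All knockout values of the 4 probe sets, and all but 2 of their wildtype values, lay below 3.28. With the mean of the 5 probe sets the Far1 difference was -0.30.

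Scd1, a stearoyl-CoA desaturase, varied widely between arrays. Probe set 1415964_at read 7.86, 7.70, 8.07 and 6.80 on knockout arrays 1 to 4, and 7.81, 8.43, 9.16, 9.72 and 8.64 on wildtype arrays 1 to 5. Wildtype array 1 fell inside the knockout range and the other wildtype arrays lay above it. The means were 7.61 ± 0.56 (SD, n = 4) in knockout and 8.75 ± 0.73 (SD, n = 5) in wildtype, a difference of -1.14 (SE 0.37) with a limma adjusted p of 0.162. The 95% interval ran from -1.95 to -0.34. With the Xist level as a covariate the Scd1 difference was -1.96, with a limma adjusted p of 0.367. On the arrays with high Xist alone it was -2.12, with a limma adjusted p of 0.482. Probe set 1415965_at read 3.45 to 4.22 in knockout and 4.21 to 4.96 in wildtype, a difference of -0.62 (SE 0.21) with a limma adjusted p of 0.191. Its groups overlapped only between knockout array 1, at 4.22, and wildtype array 5, at 4.21. Knockout array 4 was lowest for both probe sets.

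After removal of group means over the 9 arrays, Scd1 1415964_at had r = 0.58 with the mean of the adipocyte markers, 0.80 with that of the other desaturation genes, 0.59 with lipid storage genes and 0.42 with sebocyte and duct markers. For Scd1 1415965_at the values were 0.62, 0.87, 0.66 and 0.80, and 0.86 with the sebaceous regulators. Some lists share genes, such as Plin2 and Pparg, so these values are not independent of each other. The mean of 10 measured adipocyte markers was 4.27, 4.30, 3.81 and 4.24 on knockout arrays 1 to 4, and 3.83, 5.07, 6.95, 5.69 and 5.24 on wildtype arrays 1 to 5. Wildtype array 1 was the lowest wildtype array for Scd1 1415964_at and for these markers. For Scd1 1415965_at the lowest was wildtype array 5, at 4.21. Arrays 3 and 4 were the highest wildtype arrays for both Scd1 probe sets and for the markers. The knockout arrays went otherwise. Array 3 was the highest of them for 1415964_at, at 8.07, and the lowest for the markers, at 3.81. Adipoq, the fat cell hormone adiponectin, read 2.42 to 4.27 in knockout and 2.83 to 9.46 in wildtype. Wildtype arrays 3 and 4 were also left out together, a step chosen after seeing the data because they read highest for Scd1, so no Scd1 value is given from it. The Far2 difference was then -1.55 with a limma adjusted p of 0.128. Wildtype array 3 was also the highest of all for Far2, at 7.03, and array 4 lay above the wildtype mean. A smaller Far2 difference was therefore fixed by the choice of arrays. The part of adipocyte RNA in the Scd1 and Far2 differences was not tested.

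**Figure D3:**
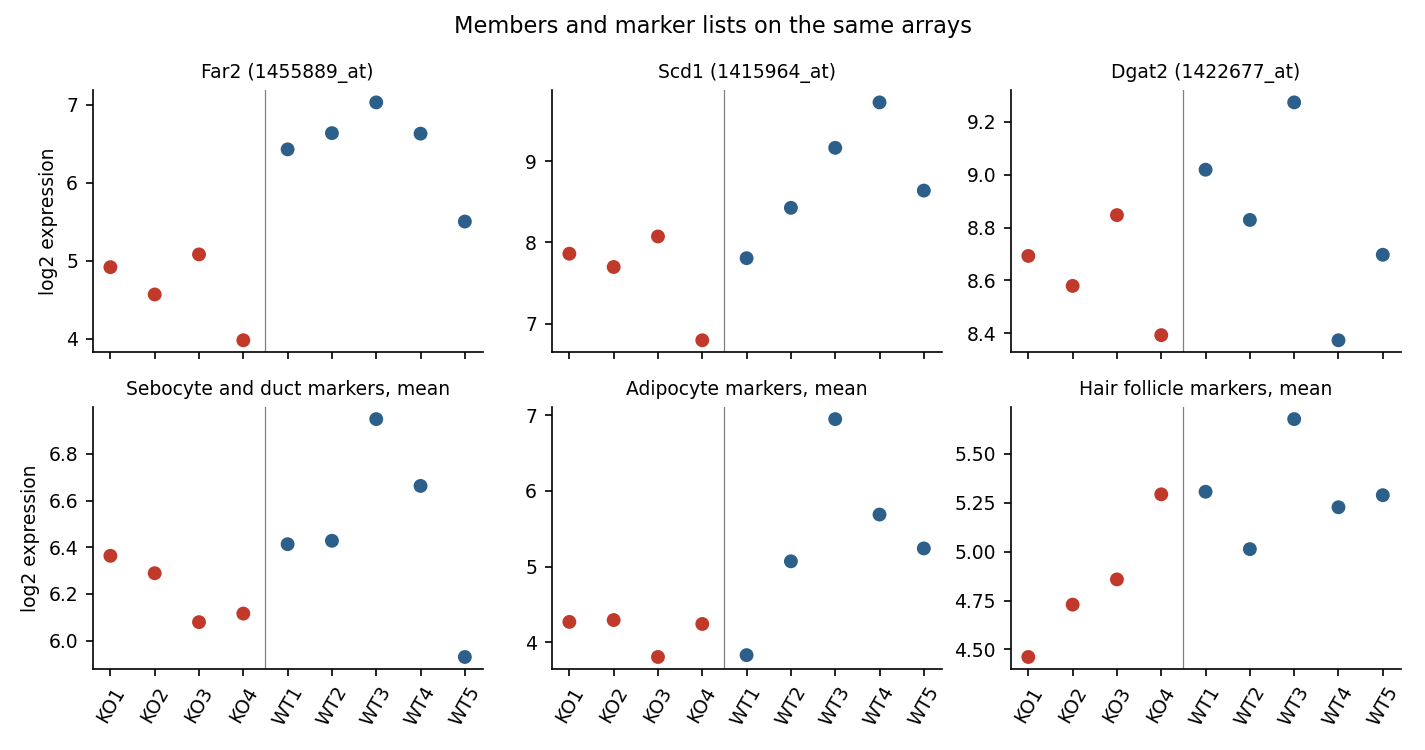
Log2 expression on each knockout (KO1 to KO4) and wildtype (WT1 to WT5) array for 1 probe set each of Far2, Scd1 and Dgat2 in the upper row, and the mean of 9 sebocyte and duct markers, 10 adipocyte markers and 14 hair follicle markers in the lower row. The Far2 and Scd1 panels show the brightest probe set of the gene, and the Dgat2 panel shows the dimmer one, 1422677_at. The vertical axes differ between panels and do not start at 0. WT1 is the lowest wildtype array for the Scd1 probe set shown and for the adipocyte markers. WT5 is the lowest wildtype array for Far2 and for the sebocyte and duct markers. WT5 is also the lowest for lists not drawn, among them the fibroblast markers.

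Scd3, a desaturase gene of sebocytes and Harderian gland in the mouse, was at the level of absent RNA. Probe set 1450956_at read 2.62, 3.13, 3.28 and 3.25 on knockout arrays 1 to 4, and 2.94, 2.89, 2.96, 3.05 and 2.81 on wildtype arrays 1 to 5. The difference was 0.14 (SE 0.14, 95% interval -0.18 to 0.45), and that of probe set 1423366_at was 0.19 (SE 0.13, 95% interval -0.10 to 0.49). Neither gave a level clear of background, so these differences say little about Scd3 RNA. Scd2, another stearoyl-CoA desaturase, read 11.12 ± 0.62 (SD, n = 4) in knockout and 10.63 ± 0.11 (SD, n = 5) in wildtype, with a limma adjusted p of 0.316. It read above both probe sets of Scd1 in either group, although background differs between probe sets.

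Elovl3, the elongase of sebaceous glands and brown fat, did not separate the groups. Its probe set 1420722_at read 3.70, 3.77, 4.06 and 4.45 on knockout arrays 1 to 4, and 4.12, 4.13, 3.95, 4.39 and 3.19 on wildtype arrays 1 to 5. Wildtype array 5 was the lowest of all 9 and the only one below 3.28. The difference was 0.04 (SE 0.24, 95% interval -0.48 to 0.56), or 0.716-fold to 1.47-fold. With the Xist level as a covariate it was -0.38, and without wildtype array 5 it was -0.15, neither past the threshold.

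Dgat2, which joins an acyl chain to diacylglycerol, was bright and even. Probe set 1422678_at read 10.50, 10.50, 10.81 and 10.56 on knockout arrays 1 to 4, and 10.66, 10.65, 10.52, 10.60 and 10.55 on wildtype arrays 1 to 5. Knockout array 3 was the highest of all, and every wildtype value lay within the knockout range. The difference was -0.01 (SE 0.10, 95% interval -0.24 to 0.22). Probe set 1422677_at read 8.39 to 8.85 in knockout and 8.37 to 9.27 in wildtype, a difference of -0.21 (SE 0.18, 95% interval -0.60 to 0.18).

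Mc5r read 2.70, 2.58, 2.75 and 3.00 on knockout arrays 1 to 4, and 2.70, 2.75, 2.83, 2.91 and 2.75 on wildtype arrays 1 to 5, all below 3.28. The difference was -0.03 (SE 0.11). The other melanocortin genes measured also gave no called difference. Of 6 such genes 0 passed in limma, 1 was higher at an unadjusted p of 0.05 and the median difference was -0.13, against 0.02 for all genes. Mrap, an accessory protein of melanocortin receptors, read 3.93 ± 0.50 (SD, n = 4) in knockout and 4.26 ± 1.27 (SD, n = 5) in wildtype, with 6.48 on wildtype array 3. Mc3r, a receptor of the hypothalamus, read 3.33 ± 0.08 (SD, n = 4) in knockout and 3.08 ± 0.11 (SD, n = 5) in wildtype, near the absent level in both. Its groups did not overlap, and its limma adjusted p was 0.250.

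**Figure D4:**
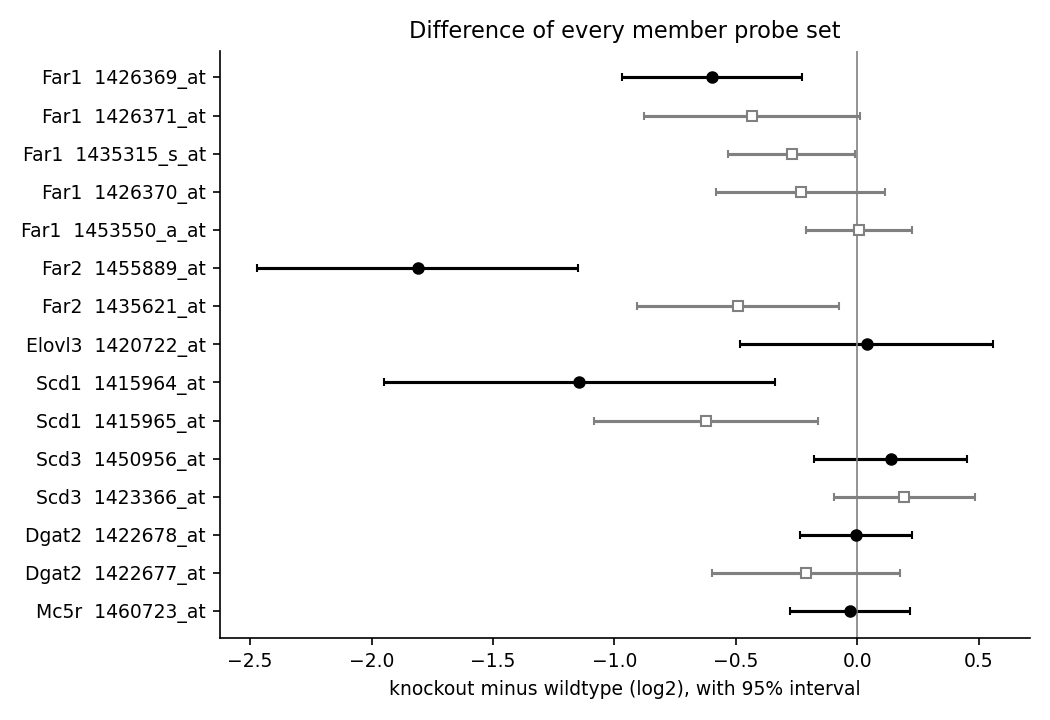
Difference (knockout minus wildtype, log2 scale) of each of the 15 member probe sets, with 95% intervals from limma. Filled circles are the brightest probe set of a gene and open squares the others. Far2 1455889_at stands at -1.81 and Scd1 1415964_at at -1.14, while the probe sets of Elovl3, Scd3, Dgat2 and Mc5r have intervals that cover 0.

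None of the other listed genes of lipid synthesis that were measured was called. Of 16 genes of fatty acid synthesis and elongation 0 passed in limma, with 2 higher and 2 lower at an unadjusted p of 0.05 and a median difference of 0.03. Hacd2, the dehydratase of the elongation cycle, read 8.93 ± 0.26 (SD, n = 4) in knockout and 9.57 ± 0.21 (SD, n = 5) in wildtype. Its groups did not overlap, and its limma adjusted p was 0.0759. Acacb, the acetyl-CoA carboxylase of mitochondria, read 5.43 ± 0.35 (SD, n = 4) in knockout and 4.89 ± 0.44 (SD, n = 5) in wildtype, with a limma adjusted p of 0.267. Of 8 other genes of desaturation 0 passed in limma, 0 were higher and 1 was lower at an unadjusted p of 0.05. That one was Cyb5a, the cytochrome b5 that passes electrons to desaturases, at 9.02 ± 0.41 (SD, n = 4) in knockout and 9.59 ± 0.17 (SD, n = 5) in wildtype.

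Lipid storage genes held no call either. Of 17 other acyltransferase and storage genes 0 passed in limma, 1 was higher and 3 were lower at an unadjusted p of 0.05, and the median difference was -0.14. The higher one, Mogat1, read 2.16 to 2.99, below 3.28 on every array. Plin2, the coat protein of lipid droplets in many cells, read 5.96 ± 0.32 (SD, n = 4) in knockout and 6.92 ± 0.50 (SD, n = 5) in wildtype, with a limma adjusted p of 0.0955. Dgat1, the other triglyceride synthase, read 4.64 ± 0.44 (SD, n = 4) in knockout and 5.50 ± 0.55 (SD, n = 5) in wildtype. Its groups did not overlap, and its limma adjusted p was 0.177. The 5 ether lipid and peroxisome import genes measured, which act beside Far1, had 0 calls in limma, 0 at an unadjusted p of 0.05 and a median difference of -0.15. Pex19 differed by -0.25 (SE 0.15) and Pex5 by 0.23 (SE 0.15).

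Regulators and markers of sebaceous glands were mixed. Of 10 regulators 0 passed in limma, and 3 were higher and 0 lower at an unadjusted p of 0.05. Among the 3 higher, Nr1h3 read 2.73 to 3.27, below 3.28 on every array. Prdm1, which encodes Blimp1 and is expressed both in sebaceous cells and in the granular layer, read 9.67 ± 0.42 (SD, n = 4) in knockout and 8.60 ± 0.64 (SD, n = 5) in wildtype. Its groups did not overlap, and its limma adjusted p was 0.132. Pparg, the nuclear receptor of sebocytes and adipocytes, read 2.50 to 2.68 in knockout, below 3.28, and 2.45 to 4.55 in wildtype, where the highest value was that of array 3.

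Of 9 measured sebocyte and duct markers outside the members 0 passed in limma, with 1 higher and 4 lower at an unadjusted p of 0.05. The median difference was -0.65, against 0.02 for all genes. Plet1, a surface protein of the upper follicle, read 11.38, 11.29, 7.51 and 9.18 on knockout arrays 1 to 4 and averaged 7.17 ± 0.71 (SD, n = 5) in wildtype. Mgst1, a membrane glutathione transferase, read 6.83 ± 0.87 (SD, n = 4) in knockout and 8.50 ± 0.75 (SD, n = 5) in wildtype, with a limma adjusted p of 0.102. The mean of the 9 markers lay between 6.08 and 6.36 in knockout and between 5.93 and 6.95 in wildtype. Wildtype array 5 was the lowest of all 9 arrays for this mean and the lowest wildtype array for Far2. This was not particular to these markers. The same array was lowest of all for the means of lipid storage genes (6.10), melanocortin genes (3.20) and fibroblast markers (5.61). Among knockout arrays, the sebocyte and duct mean was lowest on array 3 and Far2 on array 4. After removal of group means over the 9 arrays, Far2 1455889_at had r = 0.77 with the sebocyte and duct mean. With melanocortin genes r was 0.78 and with lipid storage genes 0.74. With keratinocyte markers it was 0.47, with adipocyte markers 0.27, with fibroblast markers 0.01 and with hair follicle markers -0.21. Some of these lists share genes.

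Markers of other tissue in the sheet also differed between arrays. The mean of 14 hair follicle markers was 4.46, 4.73, 4.86 and 5.29 on knockout arrays 1 to 4 and lay between 5.01 and 5.68 in wildtype. Knockout array 4 lay within the wildtype range for these markers. That array was the lowest of all for Far2 and Scd1 and, as given below, the highest for the fibroblast markers. Of the 14 genes 0 passed in limma, and 0 were higher and 5 lower at an unadjusted p of 0.05. Among the 5 lower, Krt35 read below 3.28 on every array. The median difference of the 14 genes was -0.42, against 0.02 for all genes. Tchh, trichohyalin of the inner root sheath, read 8.30 ± 0.57 (SD, n = 4) in knockout and 9.66 ± 0.47 (SD, n = 5) in wildtype, with a limma adjusted p of 0.0556. Krt27, also of the inner root sheath, read 7.28 ± 1.10 (SD, n = 4) in knockout and 8.44 ± 0.56 (SD, n = 5) in wildtype.

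Of 10 adipocyte markers 0 passed in limma, and 0 were higher and 3 lower at an unadjusted p of 0.05. The median difference of these markers was -1.30, against 0.02 for all genes. Retn, the fat cell hormone resistin, read 4.38 ± 0.47 (SD, n = 4) in knockout and 6.14 ± 1.32 (SD, n = 5) in wildtype. Of 7 fibroblast markers 0 passed in limma and 0 did at an unadjusted p of 0.05, with Lum differing by 0.91 (SE 0.64) and Col1a2 by 0.52 (SE 0.81). The median difference of the 7 was 0.37. Averaged, the fibroblast markers read 9.32 on knockout array 4, the highest of all, and 5.61 to 7.86 elsewhere. Of 9 interfollicular keratinocyte markers 0 passed in limma, with 1 higher and 1 lower at an unadjusted p of 0.05. Krt15, the lower one, differed by -1.04 (SE 0.32), and Ivl, the higher one, by 0.50 (SE 0.15). Dsg1a differed by -0.58 (SE 0.30). The list was split, with 5 of the 9 differences negative and a median of -0.07, against 0.02 for all genes. The part of these tissues in the Far2 difference was not tested.

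The genes most like each member were sought among 9097 genes at or above the median level, by Pearson r over 9 arrays after removal of the group means. Each is the best of this pool over few arrays and describes these arrays only. Far2 was followed most closely by Chil1 (r = 0.99), Pcdh1 (r = 0.97) and Kprp (r = 0.97). The genotype difference was 0.32 for Chil1, 0.70 for Pcdh1, which passed with a limma adjusted p of 0.0334, and -0.30 for Kprp. Scd1 was followed by Csf2rb, Atp5g3 and Alad, with r between 0.92 and 0.94. Dgat2 was followed by Dnal4, Ptdss2 and Trim3, with r of 0.98 each. Elovl3 was followed by Tbxa2r, Adat3 and Ccdc74a, with r between 0.97 and 0.98, and Far1 by Tpp2, Ahcy and Garem1, with r of 0.94 each. For Scd3 and Mc5r, whose levels were not clear of background, r of the best 3 genes lay between 0.93 and 0.98.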

How the data were processed

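Log2 expression values were deposited by the authors as 1 table of 45037 probe sets on 9 arrays. Per the submitters' processing notes affy was used, and the sources used here give neither its version nor the background correction, normalization and summary steps. The values ran between 1.43 and 14.46, which fits a log2 scale. At most 125 probe sets had identical values on any 2 arrays.

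The platform annotation named 1 gene for 34945 probe sets, several for 932 and none for 9160. Symbols were updated by gene number to the GRCm38.p6 table, which held 34741. The probe set with the highest mean stood for its gene. Groups came from the titles.

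Differences, knockout minus wildtype, were fitted with limma 3.58.1 in R 4.3.3 (lmFit, eBayes), over all 18193 genes and separately over all probe sets. Benjamini-Hochberg adjustment ran over each whole table. Intervals and SE of members come from the probe set fit, and adjusted p values of a gene from the gene fit. The code was tested on simulated data.

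Members, gene lists and tests were chosen with earlier results of these data known. Named were all members, the 2 largest differences of each list without a call, and the 3 genes most like each member. Nr1h3, Mogat1 and Krt35 are also named, for their low level, and Ivl, as the keratinocyte marker counted as higher. The arrays differ by replicate label, and the sources used here do not say which pups shared a litter. Without litters, p values measure the spread between these samples.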

Additional observations from a re-analysis of the deposited data

Results flagged for a closer look

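Of 30 groups of values, the 2 genotypes for each of 15 probe sets, 2 held an array that stood apart by Dixon's criterion, where chance gives about 1 in 20. Both were dim probe sets of Far1. Probe set 1426370_at read 2.68 on knockout array 1, with the other knockout arrays between 2.27 and 2.32. Probe set 1426371_at read 3.74 on wildtype array 3, with the other wildtype arrays between 2.90 and 3.11.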

How the results depend on the processing

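Of 19 planned settings and 2 chosen after seeing the data (wildtype arrays 3 and 4, which read highest for Scd1, left out together, and the high-Xist arrays only), none reversed a called difference. The number of member genes called, 1 with all arrays, was 0 with the mean of probe sets, with the Xist covariate, without wildtype arrays 3 and 4, and with the high-Xist arrays only. At an unadjusted p of 0.05 limma then gave 3, 2, 2 and 2 genes. Leaving out single arrays gave 0 to 2 genes, 2 without knockout array 1, when Far1 joined Far2. The number of member probe sets called, 1 with all arrays, was 2 with array weights, where the dimmer Far2 probe set joined, and 0 with the Xist covariate, without wildtype arrays 3 and 4 and with the high-Xist arrays only. At an unadjusted p of 0.05 limma then gave 4, 2 and 4 probe sets. Leaving out single arrays gave 0 to 2 probe sets. Under the filter on level, 9097 genes were tested, and Far1, Elovl3, Scd3 and Mc5r were not among them.

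The replicate block left the count of called members at 1 gene and 1 probe set, with a Far2 difference of -2.05 and a limma adjusted p of 0.00910, and changed no other member's call. Wildtype array 5 has no knockout array of its number, so the block takes it out of the contrast, and each member's difference equals that without this array. Same-numbered arrays correlated at -0.21, -0.10, -0.21 and 0.18 after removal of group means, and 1 of 4 knockout arrays correlated best with its own number, so the numbers were not taken as pairs. Over all genes, 226 passed with all arrays, 93 higher and 133 lower. The total was 119 with the block, 1644 with array weights, 9 with the Xist covariate (8 higher and 1 lower), 571 at a threshold of 0.10 (182 higher and 389 lower), and 62 to 281 without single arrays. It was 49 without wildtype arrays 3 and 4 and 0 with the high-Xist arrays only. With quantile normalization 147 were higher and 143 lower. Signal near background limits Scd3, Mc5r, the dimmer Far2 probe set and most Far1 probe sets.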
